A study of Homo sapiens with 5 samples.

Results

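The long arm of chromosome 13 was followed through 60 of its expressed genes in human astroglial cells with an edited IDH1 gene. The genes were chosen by position, spread along the arm from ZMYM2 near the centromere to CDC16 near the end, and not by their own change. The arm itself was chosen because its genes lay low in edited against wild-type libraries, so every value of that comparison below is a description and carries no test. All 60 genes had counts in the deposited tables of 57905 genes, and all 60 were among the 16471 genes that passed the filter on low counts. Total RNA of SVG-10B1, an established astroglial line, was sequenced in 5 libraries. The edited cells carried the genotype IDH1 R132H/WT and were given by 1 library of clone 2 and 2 libraries of clone 6, each clone being a line grown from edited cells. The wild-type cells were given by 2 libraries of the same line, labelled clone 1. All were grown in the same medium with fetal calf serum. The labels do not say whether libraries of one clone came from separate cultures, so the spread between them may be technical.

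Chromosome 13 is acrocentric, and its protein-coding genes lie on the long arm. The genes share no pathway. They include the cell cycle brake RB1, the transcription factor FOXO1, the chromatin protein HMGB1, and housekeeping genes of splicing, protein modification and vesicle traffic. In general, transcript levels of many neighbouring genes can follow the number of copies of a chromosome that a cell line carries, and cultured lines often differ in that number. No DNA was measured here, and copy number was not tested. SVG cells derive from fetal human brain cells transformed with SV40, whose large T antigen binds the RB1 protein, and the R132H form of IDH1 makes 2-hydroxyglutarate. Read counts come from whole cultures, so fewer cells expressing a gene and less RNA per cell cannot be told apart.

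The libraries held 13572114 to 16559077 reads in genes for edited cells and 17603317 to 21881726 for wild-type cells. Ribosomal RNA took 0.417 to 9.79% of reads in edited and 2.24 to 7.23% in wild-type libraries, with overlapping ranges. IDH1 itself had 104 to 111 CPM (the usual counts per unit of library size, here scaled by TMM, which corrects for the make-up of a library) in edited and 117 to 119 CPM in wild-type libraries, a check of expression only, since gene counts carry no base calls. Of 12 astrocyte markers, 6 reached 1 CPM in any library, and the sum of the 12 was 527 to 592 CPM in edited and 286 to 298 CPM in wild-type libraries, mostly GJA1, while AQP4 was at 0 in all 5 and GFAP had 0.313 to 0.613 CPM in edited and 0.385 to 0.416 CPM in wild-type libraries. The higher sum came from GJA1, at 352 to 452 CPM in edited and 156 to 168 CPM in wild-type libraries, and CLU, at 92.6 to 130.4 CPM in edited and 33.9 to 38.0 CPM in wild-type libraries. Other markers lay the other way, with GLUL at 32.2 to 37.2 CPM in edited and 70.7 to 73.3 CPM in wild-type libraries, SOX9 at 4.503 to 6.82 CPM in edited and 8.23 to 8.31 CPM in wild-type libraries, and NFIA at 0.500 to 0.843 CPM in edited and 3.41 to 4.99 CPM in wild-type libraries. The label of astroglial cells therefore rests on few defining markers. Fibroblast and pericyte markers summed to 525 to 1680 CPM in edited and 1740 to 1960 CPM in wild-type libraries, nearly all COL1A1, with COL1A2, DCN and LUM under 1 CPM. Neuron markers summed to 1.13 to 1.35 CPM in edited and 1.38 to 1.62 CPM in wild-type libraries, oligodendrocyte markers to 9.22 to 10.8 CPM in edited and 8.86 to 10.9 CPM in wild-type libraries. Microglia markers summed to 0.876 to 1.30 CPM in edited and 1.54 to 2.50 CPM in wild-type libraries, and endothelial markers to 0.689 to 1.10 CPM in edited and 1.06 to 1.27 CPM in wild-type libraries. Among neuron markers TUBB3 and STMN2 were at 0 in every library, as were MOG and MAG of oligodendrocytes and CX3CR1 of microglia. The part of these markers in the chromosome 13 values was not tested.

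One feature of the libraries touches every value below. Clone 2 and clone 6 replicate 1 were nearly the same, with a median absolute log2 ratio of 0.07 over the genes whose average log2 CPM reached 2, while clone 6 replicates 1 and 2 differed by 0.23 and the wild-type pair by 0.11. Chi-square values for clone 2 against clone 6 replicate 1 had a median 1.59 times that of sampling noise alone, against 14.8 times within clone 6 and 4.56 times within wild type. Clone 2 against clone 6 replicate 2 was far wider, with a ratio of 0.22 and a chi-square median 14.5 times that of sampling noise. Closeness across clones was thus a trait of clone 2 and clone 6 replicate 1 only. That pair was closer than the replicates of either genotype, and the 3 edited libraries may hold less independent information than their number. Clone 2 and clone 6 replicate 1 still differed in ribosomal RNA, at 0.417 and 9.79% of reads. The labels are used as given. Whether either library is mislabelled, or both came from one culture, was not tested, and values of clone 6 against clone 2 and medians per clone compare the clones only if the labels hold. The median and the count of calls below are therefore also given with these 2 libraries summed to 1.

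Promoter sequences show how different the control regions of these genes are. FOXO1 and DNAJC15 are shown as the genes farthest below and above the common shift, LIG4 as another near 0, and CUL4A as a well known gene close to the median. Each run covers 300 bases, from 250 before to 50 after the transcription start in RefSeq, build GRCh38.p14, 5′ to 3′ on the gene's strand. They lie at chr13:40666592-40666891 (minus strand) for FOXO1, chr13:113207943-113208242 (plus strand) for CUL4A, chr13:43023336-43023635 (plus strand) for DNAJC15 and chr13:108218300-108218599 (minus strand) for LIG4. Capitals mark every match on either strand to 3 short motifs. The letters CCAAT are the core of an element bound by the factor NF-Y. The letters GGGCGG are the core of an element bound by Sp1 family factors. The letters TATAAA are a common form of the element bound by the TATA-binding protein.
FOXO1: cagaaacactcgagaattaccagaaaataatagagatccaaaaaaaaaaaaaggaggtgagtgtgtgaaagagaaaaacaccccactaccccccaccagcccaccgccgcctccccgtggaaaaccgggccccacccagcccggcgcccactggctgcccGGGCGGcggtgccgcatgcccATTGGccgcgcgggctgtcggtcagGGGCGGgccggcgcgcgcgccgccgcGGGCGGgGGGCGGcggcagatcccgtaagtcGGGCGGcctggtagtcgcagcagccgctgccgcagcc
CUL4A: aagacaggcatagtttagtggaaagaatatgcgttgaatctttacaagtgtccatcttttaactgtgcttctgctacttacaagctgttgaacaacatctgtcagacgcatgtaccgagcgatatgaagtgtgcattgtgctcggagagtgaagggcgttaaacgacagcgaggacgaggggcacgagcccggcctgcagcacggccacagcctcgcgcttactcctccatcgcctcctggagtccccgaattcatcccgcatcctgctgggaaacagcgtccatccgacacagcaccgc
DNAJC15: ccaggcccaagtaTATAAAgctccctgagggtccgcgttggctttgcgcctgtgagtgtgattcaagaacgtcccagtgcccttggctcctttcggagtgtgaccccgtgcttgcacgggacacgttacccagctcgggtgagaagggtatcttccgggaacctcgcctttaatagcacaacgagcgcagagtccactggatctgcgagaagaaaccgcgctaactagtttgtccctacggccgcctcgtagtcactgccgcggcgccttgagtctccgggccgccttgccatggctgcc
LIG4: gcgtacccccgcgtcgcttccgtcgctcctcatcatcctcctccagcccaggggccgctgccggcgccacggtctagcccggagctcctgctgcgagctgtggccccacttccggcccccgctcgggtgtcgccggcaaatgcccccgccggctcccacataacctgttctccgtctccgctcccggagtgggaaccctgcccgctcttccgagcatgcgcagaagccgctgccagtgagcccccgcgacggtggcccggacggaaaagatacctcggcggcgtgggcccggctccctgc
The FOXO1 window held 5 copies of GGGCGG and 1 of CCAAT, and the CUL4A and LIG4 windows held none of the 3 motifs. The DNAJC15 window held 1 TATAAA, near its 5′ end and so far from the transcription start. Of the 60 genes, 54 had a promoter in the RefSeq table. GGGCGG was present in 37 of the 54 (68.5%), against 44.6% of all 27305 promoters of the same length. CCAAT was present in 16 (29.6%), against 35.7% of all promoters, and TATAAA in 8 (14.8%), against 11.95% of all. The median GC content was 65.2% in the 54 promoters and 58.3% in all. These shares describe the windows only. The table of all promoters also holds genes that these cells do not express.

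The 60 genes lay lower in edited than in wild-type cells by a similar amount. Their median log2 fold change was -0.48, a fold of 0.715 or 28.5% lower, with quartiles of -0.61 and -0.34 and an SD of 0.24 between genes. All 60 fold changes were below 0, from -1.51 for FOXO1 to -0.04 for DNAJC15. Over all 16471 genes the median was 0.02 with an SD of 0.94, and 47.6% lay below 0. Over the 11215 of them whose average log2 CPM reached 2, as it did in all 60, the median was 0.03 with an SD of 0.68. Of the 60, 30 were called lower at an adjusted p below 0.05 in edgeR's quasi-likelihood test with Benjamini-Hochberg adjustment over all genes tested, where 9.49% of all genes were called lower, and 0 were called higher, where 7.64% of all genes were. In 49 of the 60, every edited library lay below both wild-type libraries, a pattern seen in 25.3% of all genes. The arm was chosen on this comparison, so nothing is read from these counts. With clone 2 and clone 6 replicate 1 summed to 1 library the median was -0.44 and 16 genes were called lower, where 5.80% of all genes were. The number called rested on single libraries. Leaving out wild-type replicate 1 left 2 calls (2.06% of all genes were then called lower), and leaving out the other wild-type library left 4 (2.88%). Dropping clone 2 left 15 calls (5.57%), dropping replicate 1 of clone 6 left 16 (5.43%), and dropping its replicate 2 gave 55 (19.7%). The median stayed between -0.52 and -0.41 throughout.

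**Figure D1:**
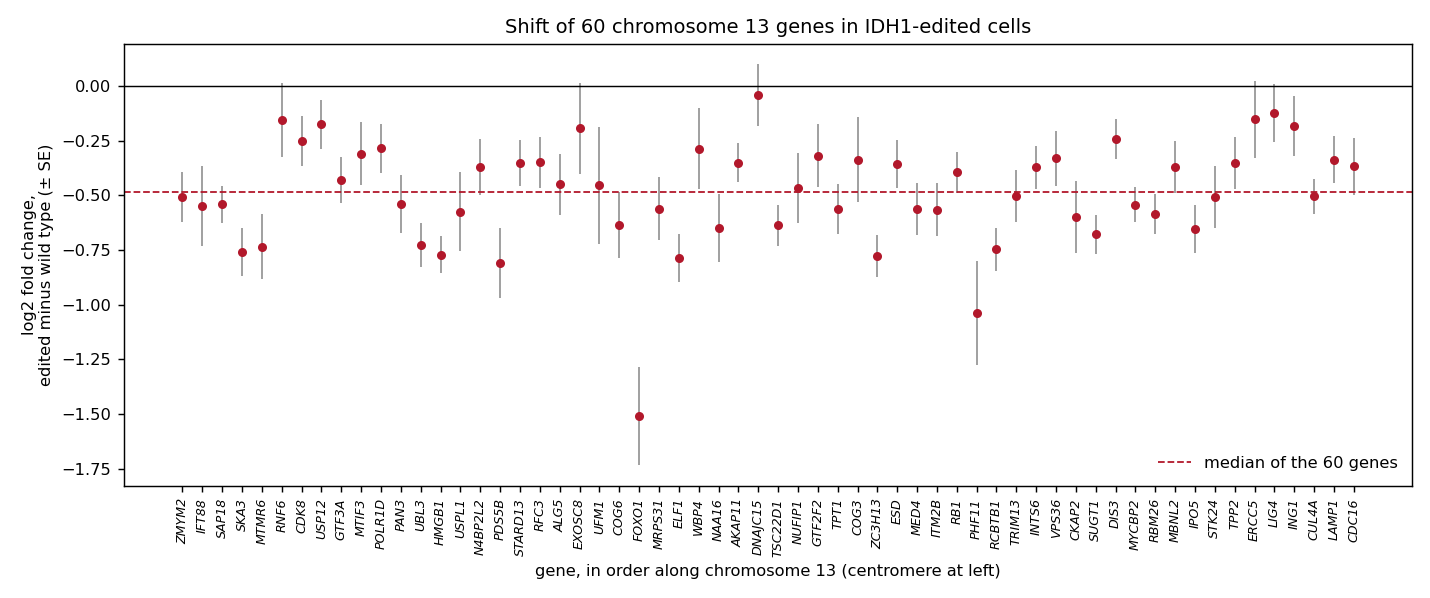
Points give the log2 fold change of each of the 60 genes, edited minus wild type, with bars of 1 SE from the edgeR fit. Genes run in order along chromosome 13 with the centromere at left. The dashed line is the median, -0.48. FOXO1 at -1.51 and PHF11 at -1.04 lie far below it and DNAJC15 at -0.04 lies nearest to 0.

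The shift was seen in each edited library. Relative to the mean of the wild-type libraries, the median log2 level of the 60 genes was -0.53 for clone 2, -0.54 for the first library of clone 6 and -0.38 for the second, against -0.01 in wild-type replicate 1 and 0.01 in wild-type replicate 2. The SD between genes was 0.24, 0.25 and 0.33 in those edited libraries and 0.085 in each wild-type library. Each gene is set against the mean of the wild-type pair, so the wild-type libraries mirror each other by construction. Their medians, SDs and counts are therefore no independent reference. The difference of wild-type replicate 1 minus replicate 2 had an SD of 0.17 over the 60 genes. In clone 2, 59 of 60 genes lay below the wild-type mean, in clone 6 replicate 1 all 60, and in clone 6 replicate 2 55, against 35 in wild-type replicate 1 and 25 in wild-type replicate 2. Clone 6 replicate 2 was the least shifted and the most scattered library. As shares of all reads in protein-coding genes, the 60 genes took 0.453% in clone 2 (exact 95% binomial interval 0.449 to 0.457%), 0.450% in the first library of clone 6 (0.446 to 0.454%) and 0.466% in its second (0.462 to 0.469%), against 0.674% (0.670 to 0.678%) and 0.671% (0.667 to 0.675%) in wild-type replicates 1 and 2. These intervals cover counting error only. The edited shares lay close together and far from the wild-type pair. For all protein-coding genes of chromosome 13 the shares were 1.09, 1.10 and 1.08% in clone 2 and clone 6 replicates 1 and 2, against 1.61 and 1.60% in wild-type replicates 1 and 2.

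**Figure D2:**
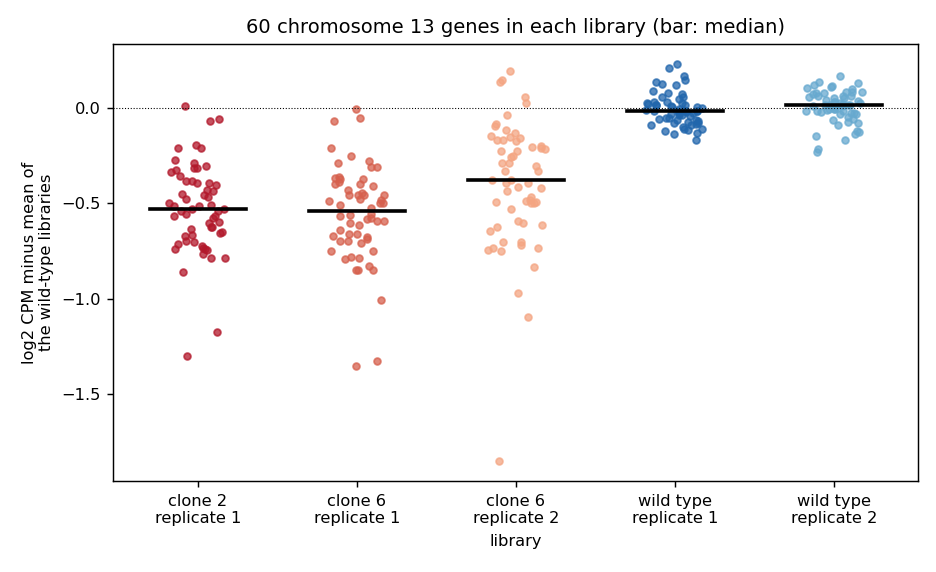
Each point is 1 of the 60 genes in 1 library, as log2 CPM minus the mean of the wild-type libraries, and black bars are medians. The 3 edited libraries, at left, have medians of -0.53, -0.54 and -0.38. The wild-type libraries lie around 0, being set against their own mean.

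Most genes kept close to the common shift. Of the 60, 40 lay within 0.2 of the median and 50 within 0.3. The median SE of a single fold change was 0.12, and the root mean square of the SE was 0.14, against an SD of 0.24 between genes. Without FOXO1 and PHF11 that SD was 0.19 and the median -0.46. Only FOXO1, PHF11 and DNAJC15 lay more than 2 scaled median absolute deviations from the median. With each library left out in turn, 59 genes stayed below 0 throughout, DNAJC15 being the exception. The fold change moved by over 1.5 times in 12 genes, namely ING1, ERCC5, LIG4, GTF2F2, EXOSC8, WBP4, RNF6, UFM1, DNAJC15, NAA16, COG3 and STARD13, and the values are given with each. Neither expression level nor summed exon length ordered the fold changes, with Spearman's rho across the 60 genes of -0.04 and -0.12, given as a description of genes that share libraries and depth.

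Values of edited libraries are given below for clone 2, clone 6 replicate 1 and clone 6 replicate 2, and those of wild type for replicates 1 and 2. Genes of transcription spread the most. Their median log2 fold change was -0.55 over 12 genes, from -1.51 to -0.25. FOXO1, a forkhead factor held out of the nucleus by insulin signalling, had 7.03, 6.89 and 4.75 CPM in edited libraries, against 20.5 and 14.9 CPM in wild-type libraries. Every edited library lay far below both wild-type libraries. The means were 6.23 ± 1.28 CPM in edited (SD, n = 3) and 17.7 ± 4.01 CPM in wild-type libraries (SD, n = 2), with a log2 fold change of -1.51 (SE 0.224). Exons of FOXO1 overlap those of LINC00598 on the same strand, so its count could have been reduced or shared by the counting. PHF11, a PHD finger protein that acts as a transcriptional regulator in T cells, had 3.74, 3.29 and 5.44 CPM in edited libraries, against 7.95 and 9.24 CPM in wild-type libraries. The groups did not overlap, and its log2 fold change was -1.04 (SE 0.238). ELF1, an ETS family factor, had 17.9, 17.1 and 18.01 CPM in edited libraries, against 31.7 and 29.2 CPM in wild-type libraries. The edited libraries were close together, at a log2 fold change of -0.79 (SE 0.111). HMGB1, an abundant DNA-bending protein, had 309, 286 and 310 CPM in edited libraries, against 510 and 520 CPM in wild-type libraries. The means were 302 ± 13.9 CPM in edited (SD, n = 3) and 515 ± 7.05 CPM in wild-type libraries (SD, n = 2), and the log2 fold change was -0.77 (SE 0.0842). HMGB1 has 42 numbered pseudogenes in the table, which together drew reads equal to 1.92% of its own, so its count may be slightly uncertain. The mildest of the group were CDK8, the kinase of the Mediator complex (-0.25), POLR1D, a subunit of RNA polymerases I and III (-0.28), and GTF2F2, a subunit of the general factor TFIIF (-0.32). GTF2F2 was at -0.18 without wild-type replicate 2. SAP18 of the Sin3 histone deacetylase complex (-0.54), MED4 of Mediator (-0.56), the zinc finger protein ZMYM2 (-0.51) and the leucine zipper protein TSC22D1 (-0.64) lay near the middle, and GTF3A, which drives 5S ribosomal RNA genes, was at -0.43.

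Cell cycle and chromosome genes had a median of -0.60 over 7 genes. PDS5B, a cohesin regulator, had 47.4, 47.4 and 35.3 CPM in edited libraries, against 83.7 and 68.1 CPM in wild-type libraries, a log2 fold change of -0.81 (SE 0.161). The groups did not overlap, and clone 6 replicate 2 was the lowest. SKA3, which helps kinetochores hold microtubules, was at -0.76, and SUGT1, a chaperone partner needed for kinetochore assembly, at -0.68. CKAP2, a mitotic microtubule protein, had 149, 147 and 103 CPM in edited libraries, against 206 and 198 CPM in wild-type libraries, at -0.60. RB1, the retinoblastoma gene, had 104, 108 and 113 CPM in edited libraries, against 151 and 135 CPM in wild-type libraries. All edited libraries lay below both, with means of 109 ± 4.61 CPM in edited (SD, n = 3) and 143 ± 10.96 CPM in wild-type libraries (SD, n = 2) and a log2 fold change of -0.39 (SE 0.0932). CDC16, a subunit of the anaphase-promoting complex, was at -0.37. ING1, a reader of methylated histone H3, had 12.1, 13.5 and 11.4 CPM in edited libraries, against 13.4 and 14.6 CPM in wild-type libraries. Its groups overlapped, and its log2 fold change was -0.18 (SE 0.137), or -0.12 without wild-type replicate 2. Its exons overlap those of CARS2 on the other strand.

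DNA replication and repair genes had the median nearest to 0 of the roles, -0.25 over 4 genes. CUL4A, the scaffold of a ubiquitin ligase that acts on damaged DNA, had 92.8, 96.0 and 94.9 CPM in edited libraries, against 133 and 136 CPM in wild-type libraries. The edited libraries were nearly equal, at a log2 fold change of -0.50 (SE 0.0808). RFC3, a subunit of the sliding clamp loader, was at -0.35. LIG4, the ligase that joins DNA ends, had 30.8, 29.2 and 24.3 CPM in edited libraries, against 29.9 and 31.4 CPM in wild-type libraries. Only clone 6 replicate 2 and clone 6 replicate 1 lay below both wild-type values, and the log2 fold change was -0.12 (SE 0.133). It was -0.20 without clone 2 and -0.041 without clone 6 replicate 2. ERCC5, the nuclease XPG of nucleotide excision repair, had 10.7, 11.1 and 8.44 CPM in edited libraries, against 12.2 and 10.1 CPM in wild-type libraries. Its log2 fold change was -0.15 (SE 0.177), and its groups overlapped. Leaving out wild-type replicate 1 gave -0.0097, leaving out the other wild-type library gave -0.28, and leaving out clone 6 replicate 2 gave -0.055. Its exons overlap those of BIVM and the readthrough gene BIVM-ERCC5, so reads could have been split between them. With so few genes, each with its own error, no difference between roles was tested.

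Genes of translation and mitochondria held both a very abundant gene and the one nearest to 0. TPT1, which encodes the translationally controlled tumour protein, had 451, 439 and 543 CPM in edited libraries, against 708 and 705 CPM in wild-type libraries. Its means were 478 ± 57.1 CPM in edited (SD, n = 3) and 706 ± 1.75 CPM in wild-type libraries (SD, n = 2), and its log2 fold change was -0.56 (SE 0.114). Per kilobase of exon it had the highest level of the 60 genes, with 65.7 CPM in edited and 97.2 CPM in wild-type cells. Per kilobase, HMGB1 had 39.1 CPM in edited and 66.7 CPM in wild-type cells, IPO5 41.6 CPM in edited and 65.5 CPM in wild-type cells, and LAMP1 32.0 CPM in edited and 40.5 CPM in wild-type cells. NAA16, an N-terminal acetyltransferase subunit, was at -0.65, or -0.42 without wild-type replicate 1, the mitochondrial ribosomal protein gene MRPS31 at -0.56 and the mitochondrial initiation factor MTIF3 at -0.31. DNAJC15, a co-chaperone of mitochondrial protein import, had 29.5, 26.7 and 34.0 CPM in edited libraries, against 28.6 and 33.5 CPM in wild-type libraries. Its groups overlapped fully and its log2 fold change was -0.04 (SE 0.143). That sign did not hold, since the value was 0.074 without wild-type replicate 2 and 0.04 without clone 6 replicate 1. It was -0.16 when wild-type replicate 1 was left out, -0.15 for clone 6 replicate 2 and -0.028 for clone 2.

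**Figure D3:**
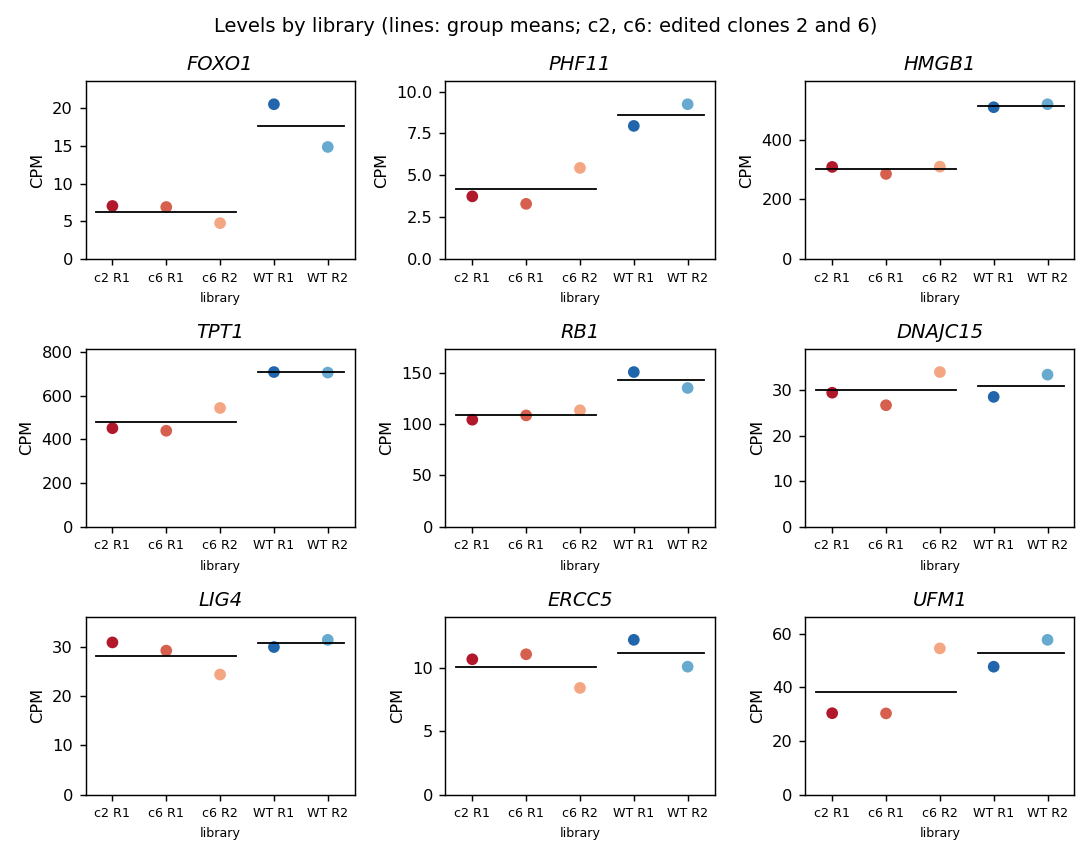
CPM of 9 of the genes in each library, with edited libraries of clones 2 and 6 at left, wild-type libraries at right and lines at the group means, each vertical axis starting at 0. FOXO1, PHF11, HMGB1, TPT1 and RB1 are separated between groups, while DNAJC15, LIG4, ERCC5 and UFM1 overlap.

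Ubiquitin and ubiquitin-like genes had a median of -0.52 over 8 genes. The BTB domain protein RCBTB1 (-0.75), the membrane-anchored UBL3 (-0.73), the SUMO peptidase USPL1 (-0.58), the very large ligase MYCBP2 (-0.54) and the ligase TRIM13 (-0.50) were at or below the common shift. RNF6, a RING ligase, had 54.3, 51.2 and 73.2 CPM in edited libraries, against 61.4 and 71.4 CPM in wild-type libraries. Clone 6 replicate 2 was above both wild-type libraries, and the log2 fold change was -0.16 (SE 0.17). With each library left out in turn it moved by over 1.5 times every time, to -0.26 for wild-type replicate 1, -0.046 for the other wild-type library, -0.094 for clone 2, -0.058 for replicate 1 of clone 6 and -0.34 for its replicate 2. USP12, a deubiquitinase, had 43.7, 41.5 and 49.3 CPM in edited libraries, against 48.8 and 52.5 CPM in wild-type libraries, a log2 fold change of -0.17. UFM1, a ubiquitin-like modifier, had 30.3, 30.3 and 54.5 CPM in edited libraries, against 47.6 and 57.7 CPM in wild-type libraries. Its fold change of -0.45 (SE 0.269) thus came from clone 2 and clone 6 replicate 1 and not from clone 6 replicate 2, without which it was -0.81.

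Trafficking, membrane and signalling genes had the tightest range of the roles with over 5 genes, from -0.73 to -0.33 with a median of -0.48 over 12 genes. MTMR6, a phosphoinositide phosphatase, was at -0.73. IPO5, an importin that carries ribosomal proteins and histones into the nucleus, had 387, 369 and 452 CPM in edited libraries, against 628 and 640 CPM in wild-type libraries, at -0.65 (SE 0.108). The groups were far apart, with clone 6 replicate 2 the highest of the edited libraries. LAMP1, a main glycoprotein of the lysosome membrane, had 170, 176 and 206 CPM in edited libraries, against 230 and 235 CPM in wild-type libraries, at -0.34 (SE 0.107). It too had its highest edited value in clone 6 replicate 2. COG6 and COG3, subunits of the Golgi tethering complex, were at -0.63 and -0.34. COG3 had 32.9, 32.0 and 48.8 CPM in edited libraries, against 48.9 and 46.9 CPM in wild-type libraries, so clone 6 replicate 2 lay within the wild-type range, and the fold change without that library was -0.57. The membrane protein ITM2B (-0.57), the ciliary transport gene IFT88 (-0.55), the kinase STK24 (-0.51), the glycosylation enzyme ALG5 (-0.45), the kinase anchor AKAP11 (-0.35), the RhoGAP gene STARD13 (-0.35, or -0.23 without wild-type replicate 2) and VPS36 of the ESCRT-II complex (-0.33) filled the rest of the range.

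RNA processing and decay genes had a median of -0.37 over 10 genes. ZC3H13, a subunit of the complex that writes N6-methyladenosine, had 64.6, 59.97 and 65.0 CPM in edited libraries, against 115 and 102 CPM in wild-type libraries, at -0.78 (SE 0.0961). It was the lowest of its role. EXOSC8, a core subunit of the RNA exosome, had 36.1, 39.5 and 58.4 CPM in edited libraries, against 48.0 and 54.1 CPM in wild-type libraries. Its log2 fold change was -0.19 (SE 0.208), and clone 6 replicate 2 was the highest of all 5 libraries. The value was -0.45 without that library, -0.061 without clone 2, and -0.11 both without replicate 1 of clone 6 and without wild-type replicate 2. DIS3, a catalytic exonuclease of the same exosome, was at -0.24, with 116, 113 and 126 CPM in edited libraries, against 137 and 143 CPM in wild-type libraries. Its groups did not overlap. The RNA-binding protein RBM26 (-0.58), the deadenylation factor PAN3 (-0.54), the snoRNP assembly factor NUFIP1 (-0.47), the Integrator subunit INTS6 (-0.37), the splicing regulator MBNL2 (-0.37), N4BP2L2 (-0.37) and the spliceosome protein WBP4 (-0.29) lay between. WBP4 was at -0.14 without clone 6 replicate 1 and -0.19 without wild-type replicate 2. The peptidase TPP2 and the esterase ESD were at -0.35 and -0.36.

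Exons of 24 of the 60 genes overlap those of another counted gene, 8 on the same strand and 19 on the opposite strand, and whether the counting used strand is not stated by any source here. The 36 genes without an overlap had a median of -0.54, and the 24 with one had a median of -0.40. The part of shared reads in these values was not tested.

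The median shift ran along the whole arm. The 20 genes nearest the centromere had a median of -0.48, the middle 20 -0.51 and the 20 farthest from it -0.44. The same was seen in all 183 protein-coding genes of the chromosome whose average log2 CPM reached 2, cut in order into 9 blocks of 20 or 21. Block medians from the centromere outward were -0.53, -0.39, -0.45, -0.45, -0.50, -0.33, -0.44, -0.38 and -0.39. In block 8, from STK24 to IRS2, 15 of 20 genes lay below 0, against 17 to 21 in the other blocks. Several mild genes were neighbours among the 60. ERCC5, LIG4 and ING1 were at -0.15, -0.12 and -0.18, and RNF6, CDK8 and USP12 at -0.16, -0.25 and -0.17. DNAJC15 instead lay between AKAP11 at -0.35 and TSC22D1 at -0.64. The part of position in these values was not tested. The block median nearest to 0 in any edited library was -0.20, in clone 6 replicate 2. That library was the least shifted of the edited ones in every block but the last, where its median was -0.50, against -0.37 in clone 2 and -0.40 in clone 6 replicate 1.

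**Figure D4:**
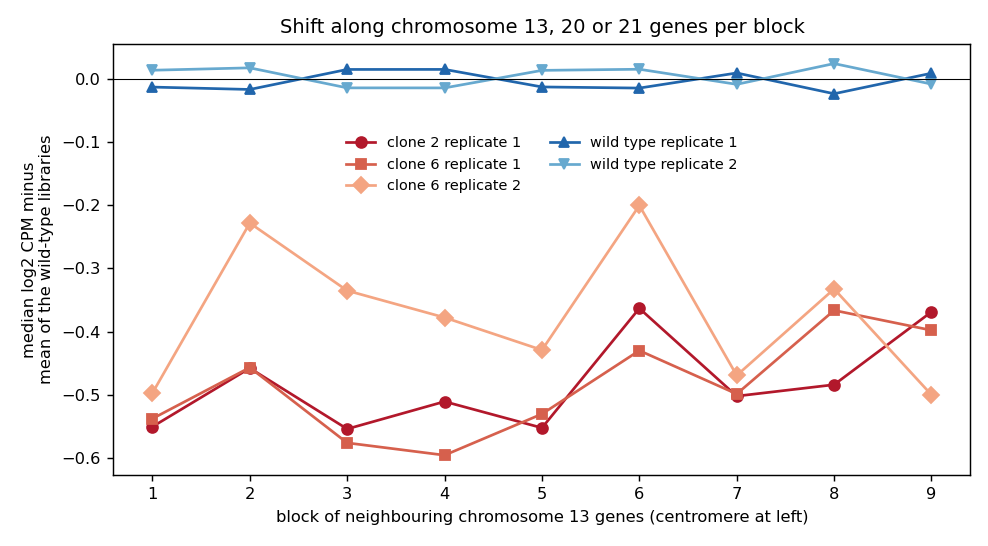
Median log2 CPM relative to the mean of the wild-type libraries in 9 blocks of 20 or 21 neighbouring protein-coding genes of chromosome 13, with the centromere at left and a line for each library. Edited libraries of clones 2 and 6 lie between -0.60 and -0.20 in every block. The wild-type libraries lie around 0, being set against their own mean.

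The rest of the chromosome lay low as well. The other 203 tested genes of chromosome 13 had a median log2 fold change of -0.42, with 162 (79.8%) below 0. Of them 59 were called lower, where 9.49% of all genes were, and 5 were called higher, where 7.64% of all genes were, and nothing is read from these counts. Among the 128 of them whose average log2 CPM reached 2, the median was -0.43, and relative to wild type it was -0.48 in clone 2, with -0.48 and -0.37 in replicates 1 and 2 of clone 6. They spread more widely, with an SD of 0.74 against 0.24 for the 60 genes. The scaled median absolute deviation, which a few outlying genes move less, was 0.33 against 0.22. The lowest was TRPC4, a calcium-permeable channel, with 3, 2 and 7 reads in clone 2 and clone 6 replicates 1 and 2, against 327 and 312 reads in wild-type replicates 1 and 2, a log2 fold change of -5.87. LCP1, an actin-bundling plastin, had 2.77, 3.45 and 8.26 CPM in edited libraries, against 90.3 and 93.9 CPM in wild-type libraries, at -4.24. TMTC4 (-2.10), the ephrin gene EFNB2 (-1.49), the actin regulator WASF3 (-1.40) and SNORA31, a small nucleolar RNA that lies within TPT1 (-1.39), followed. Some genes of the arm were higher in edited cells. KLF5, a zinc finger factor, had 13.03, 14.2 and 17.9 CPM in edited libraries, against 7.07 and 8.36 CPM in wild-type libraries, at 0.97. SHISA2 (0.95), IL17D (0.77), LMO7 (0.66), the insulin receptor substrate IRS2 (0.63) and the RabGAP gene TBC1D4 (0.61) came next. LMO7 had 179, 176 and 152 CPM in edited libraries, against 100 and 115 CPM in wild-type libraries, with no overlap.

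Among 23 chromosomes, chromosome 13 had the lowest median. Over its 183 protein-coding genes the median was -0.43, and 91.8% lay below 0. The other 22 chromosomes had medians from -0.36, on chromosome 11, to 0.24. Chromosome 15 was at -0.22. Only chromosomes 11 and 7 were also split by arm, so other arms were not compared. The long arm of chromosome 11 had a median of -0.47 over 390 genes, 92.1% of them below 0, while its short arm was at 0.07. That long arm lay slightly below chromosome 13, which was lowest only among whole chromosomes. The change in level was therefore about the same on the long arms of chromosomes 13 and 11, and no test was made between them.

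**Figure D5:**
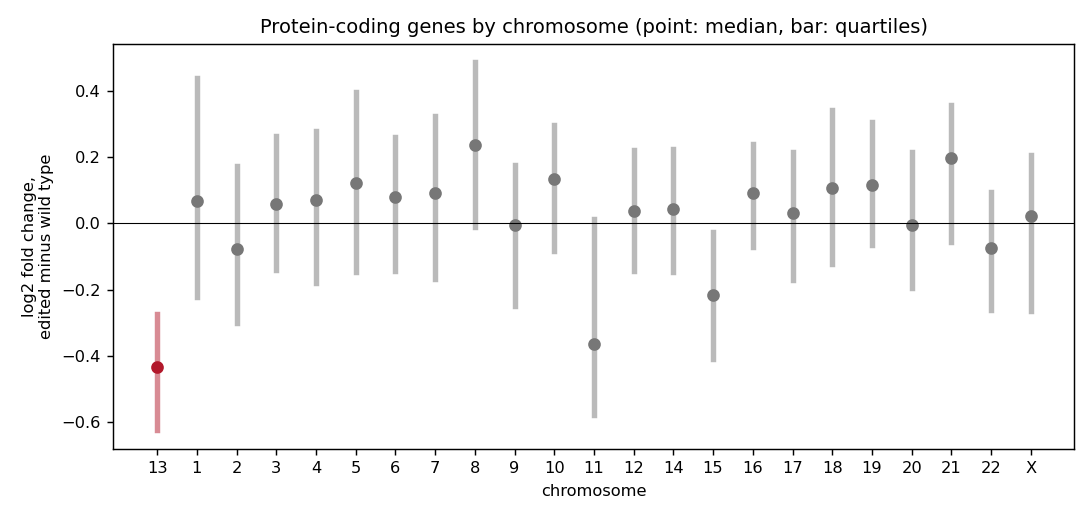
Median log2 fold change, edited minus wild type, of protein-coding genes whose average log2 CPM reached 2 on each chromosome, with bars from the lower to the upper quartile. Chromosome 13, at left, has a median of -0.43, and chromosome 11 follows at -0.36.

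The clones were compared with each other as the contrast on which the arm was not chosen. Clone 6 against clone 2 gave the 60 genes a median log2 fold change of 0.04, from -0.28 for FOXO1 to 0.49 for UFM1, with a median SE of 0.19. In edgeR's quasi-likelihood fit of 3 groups with 2 residual degrees of freedom, 0 of the 60 genes and 0% of all 16471 genes were called. At an unadjusted p below 0.05 there were 114 genes (0.692%), and 0 of the 60 were among them. DESeq2 called 2 genes, none of the 60 among them. The SE was large beside these differences, and a p that misses the threshold does not show that the clones were alike. Each clone against wild type gave medians of -0.41 for clone 6 and -0.53 for clone 2, both set against the same wild-type libraries.

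The result rests on clone 6 replicate 1, which resembled clone 2. Without it, each clone was 1 library, assumed to vary like the wild-type pair, and 872 genes (5.33%) were called between clones. Of the 60, 3 were called, which is near that share and no result about the 60 genes. These were UFM1 (log2 fold change 0.84) and EXOSC8 (0.69), higher in clone 6 replicate 2 than in clone 2, and CKAP2 (-0.53), lower in it. Clone 6 replicate 2 had 54.5, 58.4 and 103 CPM of these genes. Clone 6 replicate 1, left out here, had 30.3, 39.5 and 147 CPM, near the 30.3, 36.1 and 149 CPM of clone 2. These differences are thus those of clone 6 replicate 2 and not of clone 6 as a whole. Without clone 6 replicate 2, 5 genes (0.0309%) were called, none of the 60 among them, and the median over the 60 was -0.038.

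Within clone 6, replicate 2 had the 60 genes higher than replicate 1 by a median of 0.19 on the log2 scale, with an SD of 0.29. Of them, 44 (73.3%) were higher in replicate 2, against 55.7% of all 11215 genes whose average log2 CPM reached 2, where the median difference was 0.05 with an SD of 0.47. The genes that were higher included UFM1 (0.85), PHF11 (0.70), COG3 (0.61) and EXOSC8 (0.56). The genes that were lower included FOXO1 (-0.53), CKAP2 (-0.51), PDS5B (-0.43) and ERCC5 (-0.39). Across the 60 genes the difference had a Spearman's rho of -0.31 with exon length, a description within a single pair of libraries. COL1A1 differed within clone 6 too, with 512 CPM in replicate 2 and 1645 CPM in replicate 1, and its part was not tested. In 5 genes, RNF6, EXOSC8, UFM1, DNAJC15 and COG3, clone 6 replicate 2 was at or above the wild-type mean, against 6034 of the 11215 genes. In 11 of the 60, adding USP12, WBP4, GTF2F2, ERCC5, LIG4 and ING1, the edited and wild-type libraries were not fully separated. In the other 49 every edited library lay below both wild-type libraries, a pattern seen in 25.3% of all genes. The arm was chosen on edited against wild type, so nothing is read from these counts.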

How the data were processed

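RNA of 5 SVG-10B1 libraries was read on Illumina HiSeq machines, as the labels' protocols state. Trimmomatic, STAR, HTSeq and the build hg19 (GRCh37) appear, without roles, in the submitters' processing notes. No source used here gives the annotation release or strand setting. The deposited values are raw read counts per Ensembl gene, 1 file per library. Of 63677 listed genes, 5772 had empty values and were treated as not measured.

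Libraries were grouped by genotype and clone as labelled. Counts were filtered with filterByExpr over the 3 groups, scaled by TMM and tested with edgeR 4.0.16 (R 4.3.3, quasi-likelihood F test, Benjamini-Hochberg over 16471 genes). Residual degrees of freedom were 3 for genotype and 2 for clones. Log2 CPM used a prior count of 2. DESeq2 1.42.0, other scalings and filters, a replicate block and leaving out each library were alternatives. GENCODE 29, an annotation of GRCh38, gave chromosome, gene order and exon length for 52338 of 57905 genes, joined by identifier, and no gene coordinates are given from it. Promoters came from a RefSeq table.

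The 60 genes, their roles and the other lists were chosen with earlier results of these data known. Named in full were 6 well known genes, the 6 farthest from the median each way, genes called between clones, and the 6 highest and lowest other chromosome 13 genes whose average log2 CPM reached 2. Other values describe the remaining genes. The scripts were tested on simulated data.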

Additional observations from a re-analysis of the deposited data

How the results depend on the processing

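For edited against wild-type cells, the median log2 fold change of the 60 genes stayed between -0.52 and -0.41 under every alternative run, and 0 of the 60 were called higher in any. The number called lower was 30, where 9.49% of all genes were. It ranged from 15 to 55 when single edited libraries were left out, where 5.43 to 19.7% of all genes were. It fell further without a wild-type library, which leaves 1 wild-type library that is assumed to vary like the others. With clone 2 and clone 6 replicate 1 summed it was 16, where 5.80% of all genes were. All genes called numbered 2822, against 4274 with no filter beyond 1 read, 1520 with those libraries summed, 3213 with DESeq2 and 500 to 5971 with single libraries left out. Of 208 recomputed values of named genes, 206 kept their direction, and those reversed were DNAJC15, whose log2 fold change ran from -0.16 to 0.074 with single libraries left out, at 0.074 without wild-type replicate 2 and 0.04 without clone 6 replicate 1. The cause was not tested.

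For clone 6 against clone 2, the median over the 60 genes was 0.04, and from -0.038 to 0.16 when single libraries were left out. Genes called numbered 0, against 99 with no filter, 2 with DESeq2 and 0 to 872 with single libraries left out. Of the 60, 0 to 1 were called lower and 0 to 2 higher with single libraries left out. This comparison could not be fitted without clone 2.

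Replicate numbers are shared by clone 6 and wild type, but the labels do not say what they mark. Across 11215 genes the replicate differences of the pair of groups had r = 0.25, across genes that are not independent. With the replicate number as a block, 42 of the 60 genes and 2316 of all genes were called lower, 4499 genes were called in all, the edited median was -0.45, and the clone median was -0.004 with 0 genes called. With 1 or 2 libraries per group, single fold changes of low genes are the least certain.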
